A study of Mus musculus with 4 samples.

Results

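Oxidative phosphorylation genes were followed in the developing pontine nucleus of ICR mice, on 4 Affymetrix arrays that each held 1 pool of dissected tissue. The pools came from 27 mice at embryonic day 17.5 (E17.5), 16 at postnatal day 1 (P1), 13 at postnatal day 5 (P5) and 12 at postnatal day 14 (P14). The labels give the strain of every pool as ICR and name no genotype or treatment, and no age had a replicate. The members were the probe sets whose single gene symbol began with Nduf, Uqcr, Atp5, Cox4, Cox5, Cox6, Cox7 or Cox8, or was Sdha, Sdhb, Sdhc, Sdhd or Cyc1. This rule found 115 probe sets of 90 genes among the 19938 genes named on the array, and for a gene with several probe sets the one of highest mean log2 signal stood for it.

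The respiratory chain passes electrons from NADH (complex I) and succinate (complex II) through complex III to complex IV, where oxygen is reduced, and pumps protons across the inner mitochondrial membrane at complexes I, III and IV. Complex V, the ATP synthase, lets the protons return and makes ATP. Most subunits are encoded in the nucleus and a few in the mitochondrial genome, and assembly factors help to build the complexes without staying in them. Neurons draw most of their ATP from this chain, and it is known to expand in the brain after birth as firing and synaptic transmission set in.

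By complex, the 90 members were 34 subunits of complex I, 4 of complex II, 9 of complex III, 17 of complex IV and 17 of complex V, with 7 assembly factors of complex I and 2 related proteins, Cox7a2l and Ndufa4l2. The rule took in no assembly factor of another complex. Of the 17 complex IV subunits, 10 are made in most tissues and are called ubiquitous here, and 7 are isoforms known mainly from muscle, lung or testis. Ndufa4, named as a complex I subunit, is a subunit of complex IV and was counted there. The median signal of all probe sets with 1 symbol, 8.41 on the log2 scale, was reached by the mean level of 80 members. The other 10 were all 7 tissue isoforms, Ndufa4l2 and the assembly factors Ndufaf6 and Ndufaf7. Counts and medians below are over all members of a class, whether or not they reached that level.

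The P5-labelled and P14-labelled arrays did not lie in the order of their labels, which bears on every comparison that uses them. Over the 9910 genes past the mean level, Pearson's r across genes with P1 was 0.80 for the P5-labelled array and 0.96 for the P14-labelled array. All 11 markers of myelinating oligodendrocytes named on the array and all 11 of mature neurons were highest on the P5-labelled array, and all 10 of young neurons were lowest on it. Of 7 pontine neuron markers named on the array, 5 were lowest and 2 (Slc17a6 and Slc17a7, vesicular glutamate transporters) highest on the P5-labelled array. Barhl1, a homeobox factor of rhombic lip neurons, had log2 levels of 12.23 at E17.5, 11.79 at P1, 10.83 on the P5-labelled array and 11.61 on the P14-labelled array, and Atoh1, a factor of their progenitors, lay under 8.41 on all 4. Since each age had 1 array, nothing could be tested, and each difference below is between single arrays. The SD of a difference attributable to 1 probe set, taken over 594 genes with several probe sets past the mean level, was 0.11 for P1 against E17.5, 0.16 for the P5-labelled array against P1, 0.10 for the P14-labelled array against P1 and 0.13 for the P14-labelled array against the P5-labelled one. It holds probe noise and not the spread between pools of mice.

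Subunits of all 5 complexes were higher together on the P5-labelled array. Apart from the tissue isoforms, each of the 74 subunits had its highest value there, against 6227 of all 19938 genes (31.2%). Their median difference from P1 was 0.69 on the log2 scale, with a range of 0.25 to 1.25, whereas all genes had one of −0.03. Higher by more than 2 SDs of a probe set (0.33) were 71 of the 74, and 0 were lower by that much. Of the genes past the mean level, 29.7% were higher and 22.8% lower by that much. The P14-labelled array lay above P1 and below the P5-labelled array in 70 of the 74, against 5129 of all genes (25.7%).

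Over all 90 members, 62 were at least 0.5 higher on the P5-labelled array than at P1, where 15.5% of all genes and 20.6% of the genes past the mean level were. At least 2-fold higher were 14 of the 90, where 5.52% of all genes and 7.29% of those past the mean level were. The same shares are the background for the counts of this comparison by class and list below. At least 0.5 lower was 1 member, the tissue isoform Cox6a2, beside 11.1% of all genes. Most members thus differed by less than 2-fold, and with no replicate the spread of these differences between pools of mice is not known. In bulk tissue a different number of cells of a type and a different amount of RNA per cell cannot be told apart.

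**Figure D1:**
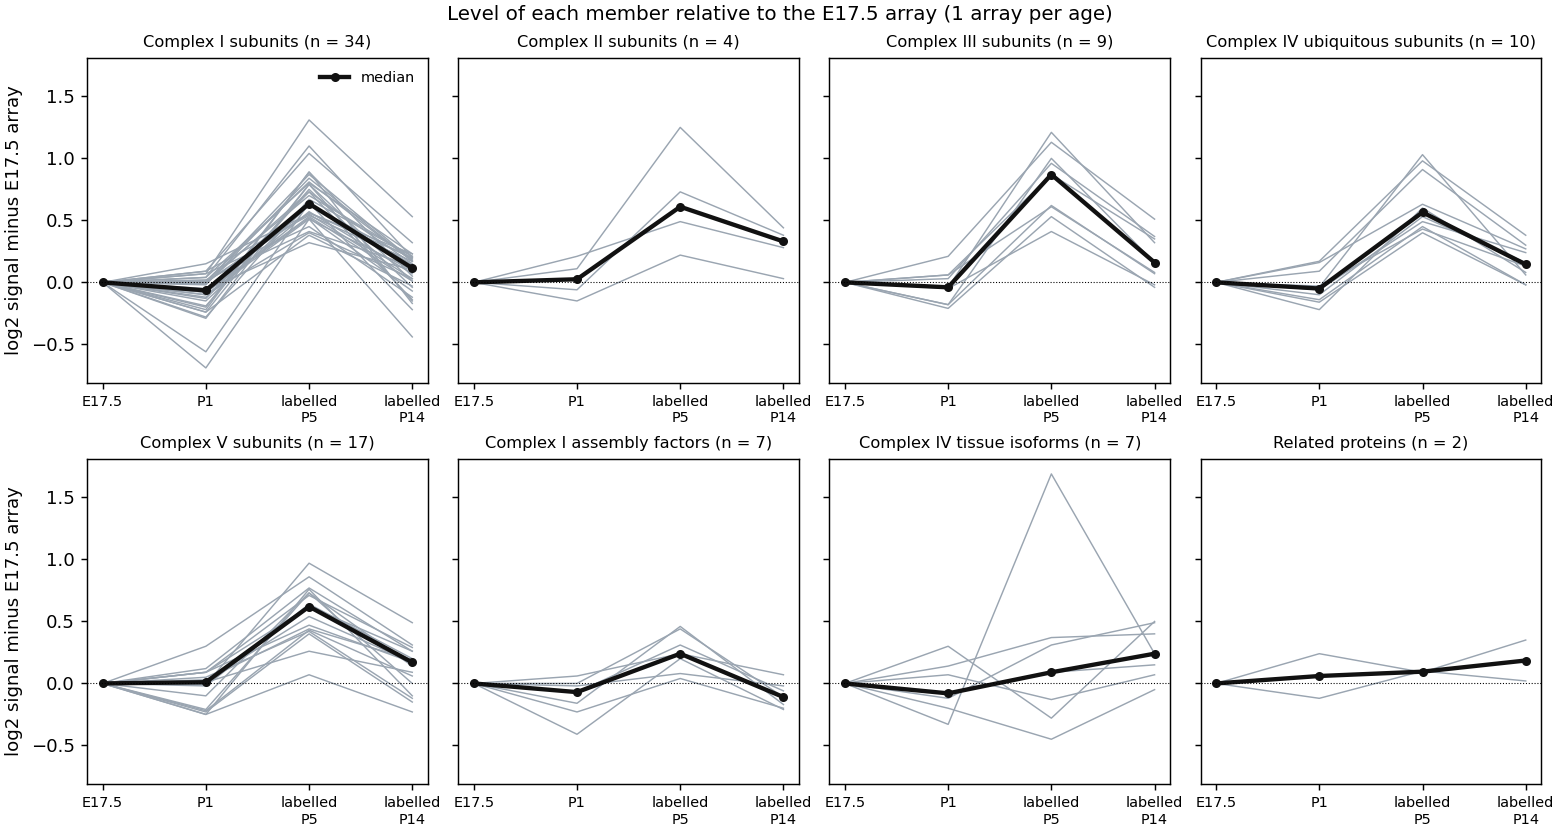
Each grey line is 1 gene, drawn as its log2 signal on each of the 4 arrays minus that on the E17.5 array, and the black line with points is the median of the class. The medians of complexes I to V and of the complex I assembly factors peak on the P5-labelled array, where those of the 5 complexes lie between 0.565 and 0.87 above E17.5 (complex IV by its ubiquitous subunits) and that of the assembly factors lies 0.24 above, while the tissue isoforms of complex IV follow no common course.

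Around birth the members hardly differed. P1 against E17.5 is the sole comparison that uses neither of the arrays with doubtful order. Here the 74 subunits had a median of −0.04, beside −0.03 for all genes, and 28 were higher and 43 lower, where 42.3% of all genes were higher. Lower by at least 0.5 were 2 of all 90 members, close to the 2.57% of all genes, and none was higher by that much. The pair were Ndufa2, an accessory subunit of the matrix arm of complex I, and Ndufc1, an accessory subunit of its membrane arm. Ndufa2 had log2 levels of 9.79 at E17.5, 9.10 at P1, 10.30 on the P5-labelled array and 9.35 on the P14-labelled array. Ndufc1 had 10.76, 10.20, 11.40 and 10.54 in the same order, and its other probe set had 10.60, 10.06, 10.97 and 10.26. Both genes thus had their lowest value at P1, and for Ndufc1 both probe sets showed it. At the other end Atp5l, the g subunit of ATP synthase, was 0.30 higher at P1, and each of its 6 probe sets was higher at P1 than at E17.5. Among the 74 subunits Uqcrq and Sdhb came next at 0.21 each and Cox4i1 at 0.17. Of the other members Cox6a2, under 8.41 on both arrays, was 0.30 higher and Cox7a2l 0.24 higher.

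Complex I, the NADH dehydrogenase, had the most members, and all 34 were higher on the P5-labelled array than at P1 by more than 2 SDs of a probe set. The median difference was 0.75, with 29 of the 34 at least 0.5 higher and 8 at least 2-fold higher. The 6 core subunits, which carry the flavin and iron-sulphur clusters, lay between 0.68 and 1.08 with a median of 0.84, and the 28 accessory subunits lay between 0.38 and 1.24 with a median of 0.73. The ranges of core and accessory subunits overlapped.

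Among the core subunits Ndufs8, an iron-sulphur subunit, had log2 levels of 11.28 at E17.5, 10.99 at P1, 12.07 on the P5-labelled array and 11.29 on the P14-labelled array. Ndufs1, the largest iron-sulphur subunit, had 9.89, 9.98, 10.93 and 10.21. Ndufs7, which lies next to the quinone site, had 12.13, 11.94, 12.88 and 12.09. All 3 stood out on the P5-labelled array, whereas for Ndufs8 and Ndufs7 the E17.5 array and the P14-labelled one differed by less than 0.05. The smallest core differences from P1 were those of Ndufs3 (0.68), Ndufv2 (0.69) and Ndufv1 (0.74), the last being the subunit that binds NADH.

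Of the accessory subunits, Ndufb8 of the membrane arm had the largest difference, with levels of 10.03 at E17.5, 10.10 at P1, 11.34 on the P5-labelled array and 10.56 on the P14-labelled array, a difference of 1.24 between P5 as labelled and P1. Ndufc1 and Ndufa2 followed at 1.20 each, both from the low P1 values given above. Against E17.5 these 2 genes were 0.64 and 0.51 higher on the P5-labelled array, so that part of their difference from P1 lay between P1 and E17.5. Ndufab1, the mitochondrial acyl carrier protein, had 10.35, 10.13, 11.24 and 10.40, and its other probe set differed by 1.10 where this one differed by 1.11. Ndufb3 and Ndufb9, both of the membrane arm, differed by 1.09 and 1.06, and Ndufs5 differed by 1.03. The smallest differences were those of Ndufc2 and Ndufs6 at 0.38 each and Ndufa12 at 0.39. Ndufs6, a zinc-binding subunit, was also 0.19 lower on the P14-labelled array than at P1, where 31 of the 34 were higher.

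The assembly factors of complex I had a smaller median difference than its subunits. All 7 had their highest value on the P5-labelled array, with a median difference of 0.38 from P1 and a range of 0.10 to 0.62, and 4 of the 7 exceeded 2 SDs of a probe set. At least 0.5 higher were 2 of the 7, beside 29 of the 34 subunits. On the P14-labelled array the median difference of the assembly factors from P1 was 0.01, beside 0.19 for the subunits, and against E17.5 it was −0.11, beside 0.115. Genes are not replicates, so these medians describe the 4 arrays and were not tested against each other.

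Each assembly factor can be named. Ndufaf1, a chaperone of the membrane arm, had log2 levels of 8.83 at E17.5, 8.67 at P1, 9.29 on the P5-labelled array and 8.66 on the P14-labelled array. Ndufaf4 had 9.31, 8.90, 9.51 and 9.10, and its partner Ndufaf3 had 10.63, 10.40, 10.67 and 10.43. Both partners were therefore nearly as high at E17.5 as on the P5-labelled array, with P1 the lowest array. Ndufaf2, a late-acting factor, differed by 0.44 between the P5-labelled array and P1, and Ndufaf5, which hydroxylates Ndufs7, by 0.38. Ndufaf6 (0.18) and Ndufaf7 (0.10), a methyltransferase, were the least different and had mean levels of 7.92 and 8.39. Complex I subunits of low signal differed by unequal amounts: Ndufb3 (8.23 at P1) by 1.09, Ndufb2 (8.38) by 0.95 and Ndufa1 (8.68) by 0.86. Ndufa5 (8.80 at P1) differed by 0.50 and Ndufb10 (8.60) by 0.40. Whether probe sets of low level understate the assembly factors was not tested.

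**Figure D2:**
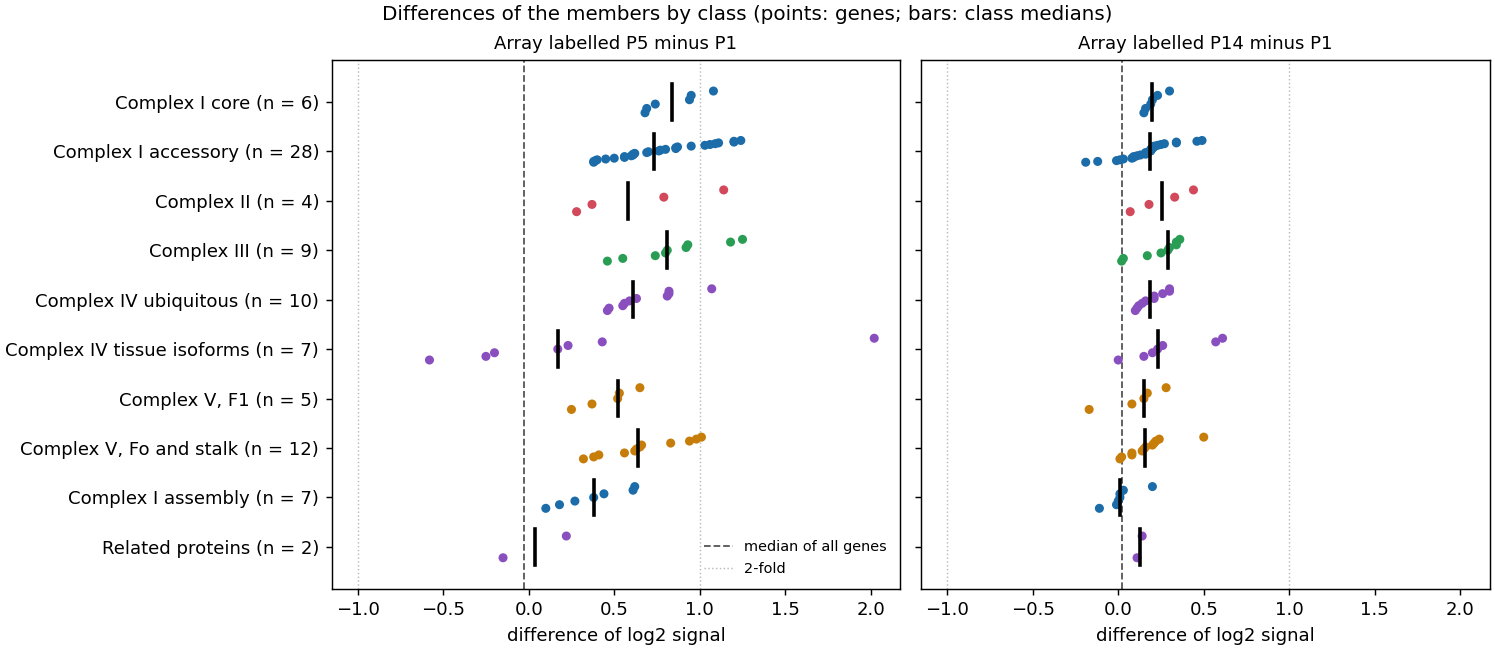
Each point is 1 gene, placed by its difference of log2 signal between the P5-labelled array and P1 (left) or the P14-labelled array and P1 (right), and black bars are class medians. Of the classes drawn, with complex I split into core and accessory subunits and complex III whole, complex I core subunits have the highest median on the left (0.84), complex I assembly factors lie at 0.38, and tissue isoforms of complex IV spread from −0.58 to 2.02.

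Complex II, succinate dehydrogenase, is also an enzyme of the citrate cycle, and its 4 subunits did not differ alike. Sdha, the flavoprotein that oxidises succinate, had log2 levels of 10.73 at E17.5, 10.84 at P1, 11.98 on the P5-labelled array and 11.17 on the P14-labelled array. Sdhd, a membrane anchor, had 10.17, 10.11, 10.90 and 10.55. Sdhc, the other anchor, had 11.95, 11.80, 12.17 and 11.98, and the iron-sulphur subunit Sdhb had 10.91, 11.12, 11.40 and 11.19. All 4 were highest on the P5-labelled array, but the differences from P1 ran from 0.28 for Sdhb, within 2 SDs of a probe set, to 1.14 for Sdha. Sdha was thus 2.20-fold higher and the other subunits were less than 2-fold higher.

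Complex III, the cytochrome bc1 complex, had the highest median of the 5 complexes for the P5-labelled array against E17.5 (0.87). All 9 of its subunits were highest on the P5-labelled array. Their median difference from P1 was 0.81, with 8 of 9 at least 0.5 higher and 2 at least 2-fold higher. Uqcr11, a small accessory subunit, had log2 levels of 10.36 at E17.5, 10.32 at P1, 11.57 on the P5-labelled array and 10.68 on the P14-labelled array, and its other probe set had 9.77, 9.70, 10.89 and 10.09. Uqcrh, the hinge protein that contacts cytochrome c1, had 11.06, 10.88, 12.06 and 11.22. Both probe sets of Uqcr11 gave a similar course, at differences of 1.25 and 1.19 from P1. Uqcrq (0.92) and the core protein Uqcrc1 (0.93) came next, then Uqcr10 (0.81), Cyc1, which is cytochrome c1 itself (0.80), and the Rieske iron-sulphur protein Uqcrfs1 (0.74). The smallest differences were those of Uqcrb (0.55) and of Uqcrc2 (0.46), the core partner of Uqcrc1.

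In complex IV, cytochrome c oxidase, the ubiquitous subunits were higher together. All 10 were highest on the P5-labelled array, with a median difference from P1 of 0.61 and a range of 0.46 to 1.07, and 8 of 10 were at least 0.5 higher. Ndufa4 had the largest difference of these, with log2 levels of 10.54 at E17.5, 10.50 at P1, 11.57 on the P5-labelled array and 10.60 on the P14-labelled array. Cox4i1, the regulatory subunit that binds adenine nucleotides, had 10.84, 11.01, 11.82 and 11.22. Ndufa4 was within 0.10 of P1 on the P14-labelled array, whereas Cox4i1 was higher at each label than at E17.5. Cox7b and Cox5b differed by 0.82 each between the P5-labelled array and P1, and their other probe sets by 0.85 and 0.71. Cox6c (0.46), Cox6a1 (0.47) and Cox8a (0.55) differed least.

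The tissue isoforms of complex IV did not share this course. Between the P5-labelled array and P1, 4 of the 7 were higher and 3 lower, with a median of 0.17, and 1 of the 7 had its highest value on the P5-labelled array. Their signals were low, and Cox4i2, Cox6b2, Cox7b2, Cox8b and Cox8c stayed under 8.41 on all 4 arrays, so that the size of their differences is inexact and no fold is given. Cox7a1, the heart and skeletal muscle isoform of subunit VIIa, had log2 levels of 7.77 at E17.5, 7.44 at P1, 9.46 on the P5-labelled array and 8.01 on the P14-labelled array. Its measured difference of 2.02 from P1 is inexact too, since it passed 8.41 on the P5-labelled array alone. Cox7a2, the isoform of the same subunit found in most tissues, differed by 0.59.

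Cox6a2, the muscle isoform of subunit VIa, went the other way, with levels of 8.08 at E17.5, 8.38 at P1, 7.80 on the P5-labelled array and 8.58 on the P14-labelled array. It differed by −0.58 where Cox6a1 differed by 0.47. Cox6a2 was lowest on the P5-labelled array, and it passed 8.41 on the P14-labelled array alone. Muscle markers differed less than either gene: of 12 markers of skeletal and heart muscle, 12 lay within 0.5 between the P5-labelled array and P1, and the log2 of their summed signal was 11.21 at E17.5, 11.25 at P1, 11.19 on the P5-labelled array and 11.33 on the P14-labelled array. Of these 12, Actn2 alone passed 8.41 on any array. Cox4i2, the hypoxia-responsive isoform of subunit IV, stood at 7.97, 8.04, 7.84 and 8.04, and Cox6b2, the testis isoform of subunit VIb, at 7.39, 7.27, 7.70 and 7.88. Cox7b2 stood at 6.36, 6.50, 6.73 and 6.76, Cox8b at 6.93, 6.85, 7.02 and 7.08, and Cox8c at 7.49, 7.29, 7.04 and 7.44. For these 5 genes all differences between arrays were at most 0.61.

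The related proteins were flat or nearly so. Ndufa4l2, a paralogue of Ndufa4 that is induced by hypoxia and marks pericytes in brain, had log2 levels of 7.41 at E17.5, 7.29 at P1, 7.51 on the P5-labelled array and 7.43 on the P14-labelled array. Ndufa4 exceeded it by 0.85 in the difference of the P5-labelled array from P1. Cox7a2l, which joins complexes III and IV into supercomplexes, stood at 9.98, 10.22, 10.07 and 10.33, and its other probe set stood at 8.42, 8.46, 8.46 and 8.59. On neither probe set was the P5-labelled array the highest, unlike all 9 subunits of complex III and the 10 ubiquitous subunits of complex IV.

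**Figure D3:**
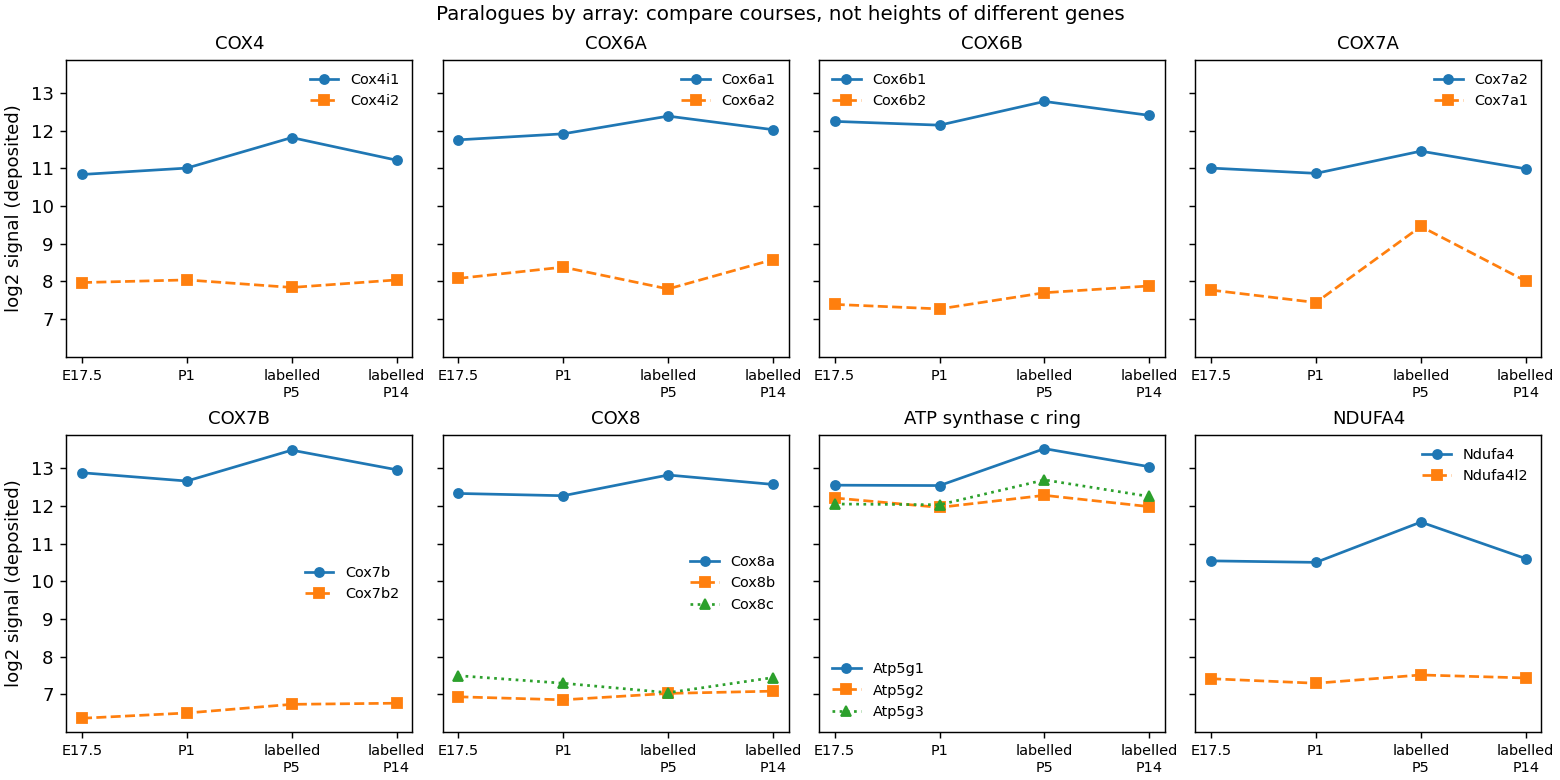
Deposited log2 signal of each paralogue on the 4 arrays, 1 panel per protein or subunit. Heights of different genes cannot be compared because each has its own probes, but the courses can: Cox7a1 peaks at 9.46 on the P5-labelled array, Cox6a2 is lowest there at 7.80, and of the c-ring genes Atp5g1 differs most between that array and P1 (0.98) and Atp5g2 least (0.32).

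Complex V was higher on the P5-labelled array in all 17 subunits, with a median difference of 0.62 from P1 and 12 of 17 at least 0.5 higher. At least 2-fold higher was 1 of the 17 (5.88%), close to the 5.52% of all genes. The 5 subunits of F1, the catalytic head, had a median of 0.52 and a range of 0.25 to 0.65, and the 12 of the membrane part and stalk had a median of 0.64 and a range of 0.32 to 1.01. Atp5b, the catalytic beta subunit, had log2 levels of 13.26 at E17.5, 13.27 at P1, 13.52 on the P5-labelled array and 13.35 on the P14-labelled array. Atp5a1, the alpha subunit, had 11.94, 12.03, 12.56 and 12.20. Atp5b thus had the smallest difference of the 74 subunits although its partner in the same ring differed by 0.53. The beta subunit probe set lay near the top of the scale, whose highest value over all probe sets was 14.72, and whether its signal was compressed was not tested. Cox7b, at 13.48 on the P5-labelled array and 12.66 at P1, lay as high there and differed by 0.82. Atp5d, at 13.72 on the P5-labelled array and 13.07 at P1, differed by 0.65. Cox6c, at 13.61 on the P5-labelled array and 13.15 at P1, differed by 0.46. Of the other F1 subunits Atp5c1 differed by 0.52 and Atp5e by 0.37.

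In the membrane part Atp5k, the e subunit, had levels of 9.23 at E17.5, 8.98 at P1, 9.99 on the P5-labelled array and 9.13 on the P14-labelled array, and was 2.01-fold higher on the P5-labelled array than at P1. Atp5h, the d subunit of the peripheral stalk, differed by 0.94, while its other probe sets differed by 0.62 and 0.75, the widest disagreement within a member. Atp5mpl (0.38) and Atp5o, which links stalk and head (0.41), were among the least different. The c ring, through which protons pass, is encoded by 3 genes whose mature proteins are the same and which differ in their import signals. Atp5g1 had 12.55 at E17.5, 12.54 at P1, 13.52 on the P5-labelled array and 13.04 on the P14-labelled array, and Atp5g3 had 12.05, 12.03, 12.69 and 12.25. Atp5g2 had 12.21, 11.96, 12.28 and 11.98, so that its E17.5 and labelled P5 values were 0.07 apart. The 3 c-ring genes thus differed from P1 by 0.98, 0.66 and 0.32 in the order Atp5g1, Atp5g3 and Atp5g2. The lowest and highest probe sets of Atp5g1 differed by 0.94 and 0.98, and those of Atp5g2 by 0.30 and 0.32.

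Between genes with several probe sets the agreement was close. The 17 members with 2 or more had a median spread of 0.06 in the difference of the P5-labelled array from P1, and the widest was the 0.32 of Atp5h. Probe sets of 1 gene can match processed pseudogenes elsewhere in the genome, of which these families have many, so they are not independent measures of the gene. Over all 115 probe sets of the members, 110 were higher on the P5-labelled array than at P1, beside 45.6% of all 21789 probe sets with 1 symbol.

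The P14-labelled array set the members slightly above P1. The 74 subunits had a median difference of 0.185, beside 0.02 for all genes, with 70 higher and 4 lower, where 53.7% of all genes were higher. Of the 74, 33 were higher by more than 2 SDs of a probe set (0.19) and 0 were lower by that much. Of the genes past the mean level, 20.1% were higher and 20.5% lower by that much. At least 0.5 higher were 3 of the 90 members, near the 4.54% of all genes, and these were Atp5g1 (0.50) and the tissue isoforms Cox7a1 (0.57) and Cox6b2 (0.61). Of the 4 lower subunits, Ndufs6 (−0.19), Atp5e (−0.17), Ndufb10 (−0.12) and Ndufa1 (−0.01), none exceeded 2 SDs of a probe set. Relative to the P5-labelled array, the P14-labelled array was lower in all 74, with a median of −0.52, and 44 of all 90 members were at least 0.5 lower, beside 10.4% of all genes. At least 2-fold lower were 2 of the 90, Cox7a1 and Ndufb3, close to the 2.75% of all genes. The comparisons with P1 and with the P5-labelled array share that array, so these values are not independent of those above.

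Promoter sequences are shown for 5 members, chosen after their values were seen, because their differences span the range from Cox7a1 to Atp5g2 and because they hold or lack motifs known from respiratory genes. NRF1 and the ETS factor GABP are transcription factors known to act on many nuclear genes of this chain. The motifs searched on both strands were the NRF1 palindrome of 10 letters (the capitals in the Atp5g2 window below), its inner part gcatgc, which lies within the palindrome, and the ETS motif ccggaag. The windows run from 250 bases before to 50 after an annotated start (RefSeq, GRCm38.p6), 5′ to 3′ on the strand of the gene, with motif matches in capitals.
Uqcr11, chr10:80406772-80407071, minus strand, inner NRF1 and ETS motifs: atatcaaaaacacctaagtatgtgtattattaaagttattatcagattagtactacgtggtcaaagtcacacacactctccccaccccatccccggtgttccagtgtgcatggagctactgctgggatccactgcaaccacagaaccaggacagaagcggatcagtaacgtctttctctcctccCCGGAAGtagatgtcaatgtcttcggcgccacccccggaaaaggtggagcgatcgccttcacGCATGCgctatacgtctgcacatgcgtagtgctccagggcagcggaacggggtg
Atp5k, chr5:108434350-108434649, minus strand, NRF1 palindrome and ETS motif: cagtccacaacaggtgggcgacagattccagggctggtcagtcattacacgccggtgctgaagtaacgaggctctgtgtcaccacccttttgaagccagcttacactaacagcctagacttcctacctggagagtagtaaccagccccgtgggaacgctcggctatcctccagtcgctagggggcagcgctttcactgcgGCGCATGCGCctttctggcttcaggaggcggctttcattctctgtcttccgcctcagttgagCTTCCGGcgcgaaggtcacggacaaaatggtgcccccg
Atp5g2, chr15:102670998-102671297, minus strand, NRF1 palindrome: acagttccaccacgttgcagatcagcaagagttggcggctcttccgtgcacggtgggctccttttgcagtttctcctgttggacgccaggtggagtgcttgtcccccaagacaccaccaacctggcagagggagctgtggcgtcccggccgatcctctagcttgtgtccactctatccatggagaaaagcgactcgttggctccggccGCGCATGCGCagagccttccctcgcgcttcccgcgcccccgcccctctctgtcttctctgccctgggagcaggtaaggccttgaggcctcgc
Atp5g1, chr11:96075582-96075881, minus strand, no match: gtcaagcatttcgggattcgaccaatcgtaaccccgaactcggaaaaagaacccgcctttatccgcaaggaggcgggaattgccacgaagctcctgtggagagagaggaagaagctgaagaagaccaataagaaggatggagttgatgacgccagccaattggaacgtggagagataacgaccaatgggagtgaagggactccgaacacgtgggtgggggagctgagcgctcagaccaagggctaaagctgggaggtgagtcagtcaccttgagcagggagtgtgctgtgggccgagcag
Cox7a1, chr7:30183921-30184220, plus strand, no match: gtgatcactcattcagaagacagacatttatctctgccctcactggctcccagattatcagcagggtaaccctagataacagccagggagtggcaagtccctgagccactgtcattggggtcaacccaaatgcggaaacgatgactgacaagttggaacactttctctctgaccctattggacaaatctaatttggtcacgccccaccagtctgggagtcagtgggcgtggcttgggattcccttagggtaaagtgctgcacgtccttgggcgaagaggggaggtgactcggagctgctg

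In these windows the palindrome began 50 bases before the annotated start in Atp5k and 42 before in Atp5g2, the inner motif of Uqcr11 began 4 before and its ETS motif 66 before. Of the 90 members, 73 had a window in the table. The palindrome was in 7 of these 73 genes (9.59%), beside 2.53% of the 7985 genes past the mean level with a window and 1.07% of all 27025 genes of the table. The inner motif was in 15 (20.5%), beside 11.9% and 8.93%, and the ETS motif in 18 (24.7%), beside 20.2% and 9.93%. The inner or the ETS motif was in 26 of the 73 (35.6%), beside 29.5% of the genes past the mean level and 17.7% of all. By complex it was in 7 of 31 genes of complex I (22.6%) and in 8 of 15 of complex V (53.3%), and none of the 4 tissue isoforms with a window, among them Cox7a1, held a match. Windows were not matched on base composition, and a match is no site of binding.

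Medians of members with and without a motif differed little, and most for the inner motif. The 26 members with the inner or the ETS motif had a median of 0.63 between the P5-labelled array and P1, and the 47 without had one of 0.66. For the palindrome alone the medians were 0.61 over 7 genes and 0.65 over 66. For the inner motif alone they were 0.56 over 15 genes with it and 0.67 over 58 without, and for the ETS motif 0.64 over 18 and 0.65 over 55. Within the c ring, Atp5g2 held the palindrome and differed by 0.32, and Atp5g3 (0.66) and Atp5g1 (0.98) held no match. Elsewhere in complex V, Atp5k held the palindrome and the ETS motif and had the largest difference of that complex (1.01). These genes were singled out after their values were seen, and whether a motif bears on the difference was not tested.

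Other mitochondrial gene lists split on the P5-labelled array. Enzymes of the citrate cycle and of pyruvate entry went with the subunits: the median difference from P1 was 0.675 over 18 genes, 13 at least 0.5 higher and 4 at least 2-fold higher. Sucla2, a succinyl-CoA ligase subunit, differed by 1.44, Dlat of pyruvate dehydrogenase by 1.32 and Suclg1 by 1.26. At the low end were Idh2 (−0.48), Suclg2 (0.13) and Cs, citrate synthase (0.33). Sucla2 and Suclg2, which give the ligase its ATP-forming and GTP-forming types, thus differed by unequal amounts. Idh3a, the catalytic subunit of the NAD-dependent isocitrate dehydrogenase, had log2 levels of 10.74 at E17.5, 10.67 at P1, 11.90 on the P5-labelled array and 11.05 on the P14-labelled array, whereas Idh2, the NADP-dependent enzyme, had 10.87, 10.81, 10.33 and 10.55. Idh3a, singled out after its values were seen, was highest and Idh2 lowest on the P5-labelled array.

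Cytochrome c, ATP carriers and porins had a median of 0.495 over 12 genes, with 6 at least 0.5 higher. Ckmt1, the mitochondrial creatine kinase, had log2 levels of 9.30, 9.58, 11.58 and 10.33 in label order and was likewise highest on the P5-labelled array. The porin Vdac2 differed by 0.78 and Cycs, cytochrome c, by 0.67, while the carriers Slc25a27 (−0.46) and Slc25a14 (−0.08) and the porin Vdac3 (−0.03) did not exceed P1. Assembly factors outside the rule, which build complexes I to V, were 36 genes with a median of 0.345, close to the 0.38 of the Nduf assembly factors, and 11 were at least 0.5 higher. The largest differences there were those of Atpaf1 (1.13), an ATP synthase assembly factor, Cox14 (1.04) and Tmem126b (1.02), and the lowest those of Sco1 (−0.15), Cox19 (−0.11) and Sdhaf4 (−0.07). The 77 genes of mitochondrial ribosomal proteins had a median of 0.38, with 23 at least 0.5 higher and none 2-fold higher. Between P1 and E17.5 the assembly factors outside the rule had a median difference of −0.195 and the ribosomal proteins one of −0.21, so that against E17.5 the P5-labelled array differed less.

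Regulators of mitochondrial biogenesis had a median of 0.13 over 19 genes, and a few stood far above the rest. Ppargc1b, the coactivator PGC-1 beta, had log2 levels of 7.72 at E17.5, 8.19 at P1, 10.38 on the P5-labelled array and 8.95 on the P14-labelled array. Ppargc1a, PGC-1 alpha, had 10.04, 9.91, 11.20 and 10.88, and the orphan receptor Esrrb had 6.95, 6.82, 8.92 and 7.09. These coactivators and Esrrb were highest on the P5-labelled array, with Ppargc1a nearly as high on the P14-labelled array. Ppargc1b lay under 8.41 at E17.5 and P1, and Esrrb passed 8.41 on the P5-labelled array alone. The size of the differences of Ppargc1b and Esrrb from P1 is therefore inexact. Pprc1, the third member of the coactivator family, differed by −0.59 from P1, Nrf1 by −0.40 and the mitochondrial polymerase subunit Polg2 by −0.15. Tfam, which packages mitochondrial DNA, stood at 8.33, 7.99, 8.46 and 7.98.

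**Figure D4:**
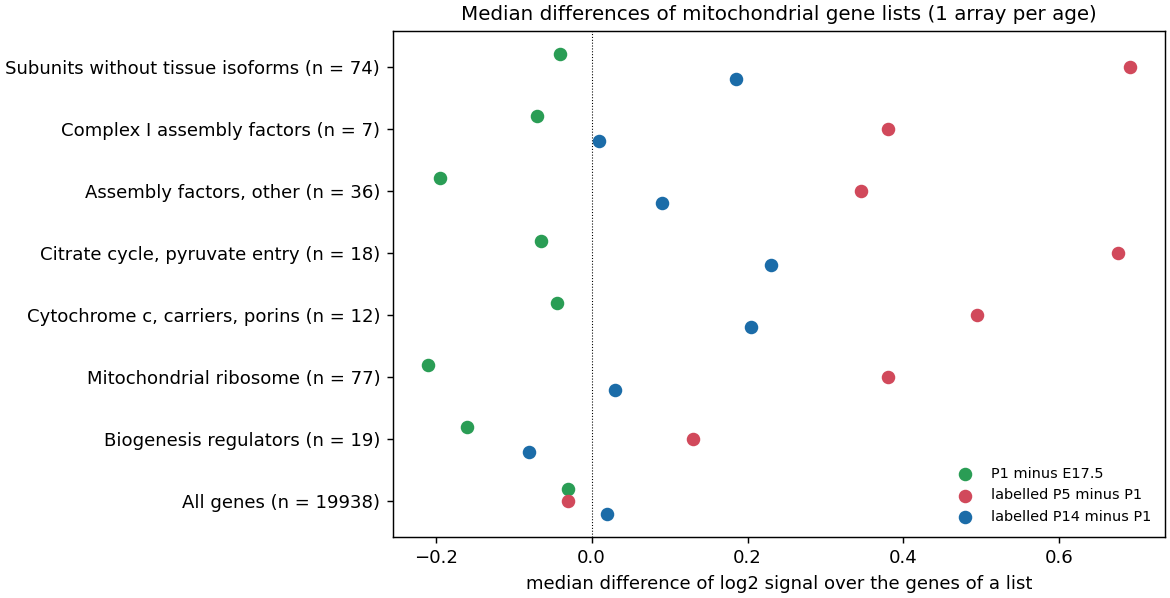
Points are medians, over the genes of each list, of the difference of log2 signal between 2 arrays, in green for P1 minus E17.5, red for the P5-labelled array minus P1 and blue for the P14-labelled array minus P1. Subunits (0.69) and citrate cycle enzymes (0.675) lie farthest right for the P5-labelled array, assembly factors and mitochondrial ribosomal proteins lie between 0.345 and 0.38, and all genes lie at −0.03.

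Markers of several cell types differed on the same array. The log2 of the summed signal of 11 mature neuron markers was 14.65 at E17.5, 14.58 at P1, 15.99 on the P5-labelled array and 15.24 on the P14-labelled array. For 11 markers of myelinating oligodendrocytes it was 11.47, 12.15, 16.18 and 13.28, for 10 astrocyte markers 13.44, 14.27, 15.29 and 14.89, and for 10 young neuron markers 15.96, 15.74, 13.73 and 15.17. Endothelial and mural markers summed to 12.57, 12.57, 13.06 and 12.86 over 10 genes, 8 microglia markers to 11.34, 11.83, 12.52 and 12.40, and 7 markers of dividing cells to 12.36, 12.29, 11.73 and 12.20. The sums of mature neuron, myelin, astrocyte, microglia and endothelial and mural markers all had the same order of arrays as the subunit medians after birth. At P1 those of myelin, astrocytes and microglia were already above E17.5, where the subunit median was not. Single genes did not all follow the sums. Highest on the P5-labelled array were 7 of 10 astrocyte, 5 of 8 microglia and 8 of 10 endothelial and mural markers. Choroid plexus and ependymal markers, 6 of 6, lay under 8.41 on all 4 arrays, as did all red blood cell markers of 3 named but Alas2. Which cells carried the higher subunit signal, and what part the makeup of the tissue had in it, was not tested.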

How the data were processed

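The deposited values are log2 signals per probe set that the authors made with Affymetrix Expression Console, per the submitters' processing notes; not given in the sources used here were its version, its summary method and its normalisation, and the values themselves (range and spread) show the log2 scale. Of 35556 probe sets, 21789 carried 1 symbol in the platform table, covering 19938 genes, 1621 carried several and were left out, and the rest were not named. All 90 members had a RefSeq gene identifier with the same symbol. Values were not rescaled. Differences between arrays were taken per gene on the log2 scale, counted at 0.5 and at 2-fold (1), and compared with all genes. With 1 array per age no test was made, and the number of arrays limits the precision. Members, lists, complex and role of each member, and thresholds were chosen with earlier results of these data known. Named genes were all complex II members and isoforms, members with a 2-fold range, assembly factors, and the 3 largest and 3 smallest differences of each class or list. Some further genes were named beside them for comparison. The summaries were tested on simulated data. Python 3.11.15, numpy 2.4.6 and pandas 2.3.3 were used.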

Additional observations from a re-analysis of the deposited data

How the results depend on the processing

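With 1 array per age, no array could be left out of a group. No paired analysis was possible because each age has 1 array. Across the alternatives (all probe sets of a gene averaged, quantile normalization, each array minus its median, genes past the mean level, no tissue isoforms or related proteins, a threshold of 0.5 for 2-fold, and, chosen after seeing the data, genes with a mean of at least 10), 395 of 416 recomputed values moved by less than 1 SD of a probe set or, for counts, by at most 1.5 times. No median of at least 1 SD of a probe set turned its direction. Smaller ones could: for the P5-labelled array against P1, the median was −0.03 over all genes and 0.04 over those past the mean level. No median moved by more than 0.16. Of the other 21, 8 came from the lower threshold by its construction: the counts at least 2-fold higher on the P5-labelled array than at P1 became 62 of all members, 60 of the subunits, 29, 2, 8, 9 and 12 for complexes I to V and 2 for the assembly factors. Quantile normalization left 1 assembly factor at least 0.5 lower on the P14-labelled array than on the P5-labelled one, and centring gave 2 complex V subunits at least 2-fold higher; the cause was not tested. Without low-level genes or tissue isoforms, complex IV had 1 such subunit, since Cox7a1 was left out. At a mean of at least 10, fewer genes were counted: 9 members and 9 subunits were at least 2-fold higher, 5 in complex I, 1 in complex IV and 0 in complex V, and 1 assembly factor was left, Ndufaf3, with a difference of −0.23 at P1, 0 counted at 0.5 either way, and 1 highest on the P5-labelled array. Low signal limits the tissue isoforms, Ndufaf6, Ndufaf7 and Ndufa4l2.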

Other observations

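Of 26 listed genes of the mitochondrial genome, 2 had a probe set with a single symbol. ND3, a complex I subunit, had log2 levels of 13.01 at E17.5, 13.38 at P1, 12.90 on the P5-labelled array and 13.13 on the P14-labelled array. COX2, the copper-bearing subunit of complex IV, had 13.52, 13.82, 13.63 and 13.67. Both were highest at P1, and on the P5-labelled array they were 0.48 and 0.19 lower than at P1, where the 74 nuclear subunits were all higher. The difference of COX2 was within 2 SDs of a probe set (0.33) and that of ND3 beyond them. Their probe sets lie near the top of the scale, where the size of a difference may be compressed, which was not tested.

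Probe sets with several symbols were outside the rule, and 6 of them held a member's name. The 3 shared by Cox7c, a ubiquitous subunit of complex IV, and Gm12338 were 0.12, 0.15 and 0.19 higher on the P5-labelled array than at P1, below the 0.46 of Cox6c, the lowest of the 10 ubiquitous subunits with their own probe sets. Both probe sets of Ndufb4 and Ndufb4b were 0.52 higher, and that of Ndufs5 and Ndufs5-ps was 1.20 higher.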
